A study of Beta vulgaris with 12 samples.

Results

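The genes described here are those of the betalain pigment pathway in roots of sugar beet (Beta vulgaris). They were chosen as the entries of the FPKM table whose description names a DOPA dioxygenase extradiol, a cytochrome P450 76AD, a cyclo-DOPA enzyme or a betanidin enzyme. The choice gave 15 of the 28320 entries. Of these, 9 were described as CYP76AD and 6 as DOPA dioxygenase extradiol (DODA), and 0 matched the cyclo-DOPA or betanidin terms. The 15 entries cover 18 annotated loci, because 3 entries join 2 neighbouring loci each under 1 value. Genes are called by the locus names of the annotation.

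RNA-seq was performed on roots of seedlings of the variety KWS0143, grown in aerated half-strength Hoagland solution. CK_1 and CK_7 were the controls, which received nutrient solution only, on day 1 and day 7. S_1 and S_7 were the salt-treated seedlings on the same days, in the same solution with NaCl and Na2SO4 added to 300 mM Na+. Each of the 4 groups had 3 biological replicates, so that 12 libraries were compared, and how many plants entered 1 library is not given in the sources used here. The Na+ level of the treatment was reached stepwise from 100 mM over 3 days, and both days are described as treatment at the final level.

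Betalains are the red-violet and yellow pigments of beets and most related plants of the order Caryophyllales, in which they take the place of anthocyanins. The pathway starts from tyrosine. CYP76AD enzymes hydroxylate tyrosine to L-DOPA, and some members of the family also oxidise L-DOPA to cyclo-DOPA. DODA opens the ring of L-DOPA to give betalamic acid, the chromophore of every betalain. Betalamic acid condenses with cyclo-DOPA to the red-violet betacyanins and with amines or amino acids to the yellow betaxanthins. Both families hold several copies in the beet genome, not all of which are known to make pigment. Sugar beet roots are pale, in contrast to those of table beet. The annotation gives no activity for the single copies, apart from 1 that it names inactive, and pigments were not measured in the data used here.

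FPKM counts the sequenced fragments of a gene relative to transcript length and library size, so it is a level per length. Library totals ran from 382847 to 423530 FPKM, and between 23688 and 24234 genes per library were above 0. FPKM carries no read counts, so the depth behind a value is unknown and no counting interval is given. An exact 0 can be a failed estimate in such a table. Of 6009 genes that reached 20 FPKM in a library, 542 were listed at 0 in another. None of the 4 betalain entries that reached 20 FPKM was listed at 0 anywhere (0 of 4). The labelled tissue was checked with the 3 genes of Casparian strip membrane proteins, which mark the root endodermis, and all 3 were at 1 FPKM or more in all libraries. The 18 genes of chlorophyll a-b binding proteins and the Rubisco small subunit, which mark green tissue, summed to 54.6 to 145 FPKM in CK_1 and 37.2 to 264 in S_1, against 10.1 to 22.7 in CK_7 and 8.91 to 16.7 in S_7.

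Of the 15 entries, 12 reached 1 FPKM in at least 1 library, 6 of each family. The other 3 were all CYP76AD. The locus named inactive cytochrome P450 76AD1, LOC104908380, reached 0.678 FPKM at most, LOC104904822 reached 0.217 and LOC104905443 reached 0.0252. Only 4 entries had a mean of 10 FPKM or more over the 12 libraries. In each family a single entry carried most of the signal. The joined CYP76AD entry LOC104904820;LOC104904821 made up 76% to 92.3% of the summed CYP76AD level of a library, and the joined DODA entry LOC104890492;LOC104890494 made up 75.2% to 96.4% of the summed DODA level. The CYP76AD sum ranged from 199 to 748 FPKM and the DODA sum from 49.6 to 97.9 FPKM.

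**Figure D1:**
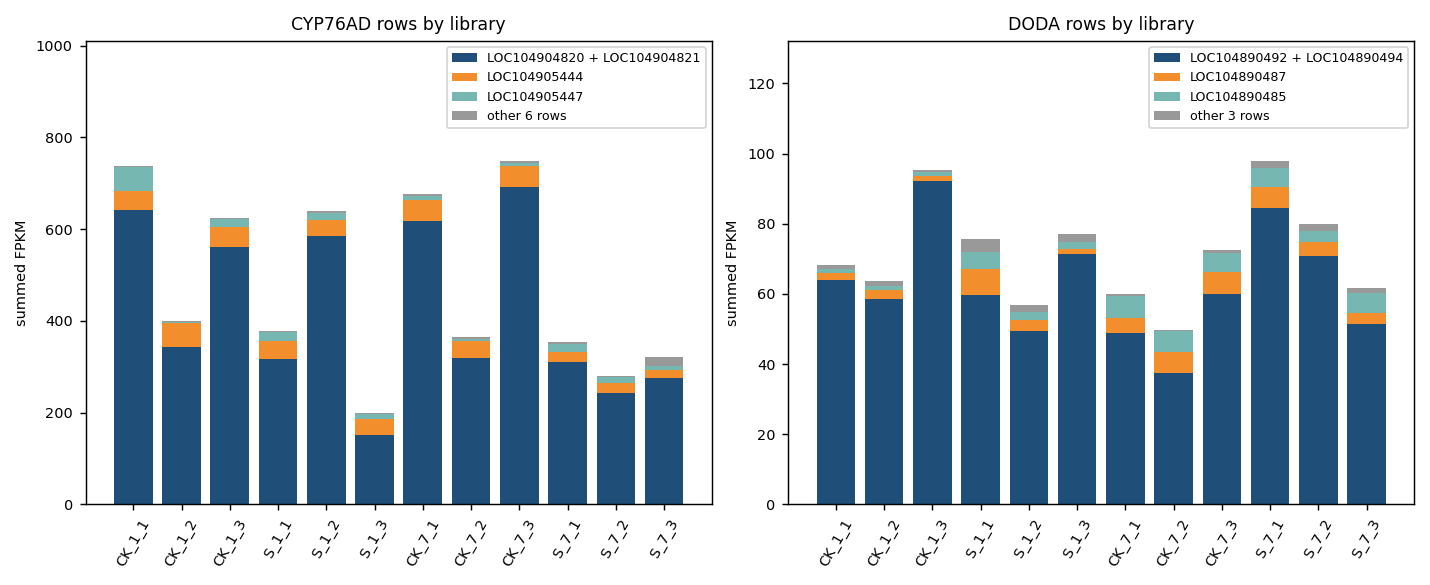
Summed FPKM of the CYP76AD entries (left) and the DODA entries (right) in each of the 12 libraries, stacked by entry, each bar being 1 library named by group and replicate. The joined entry at the base of each bar holds 76% to 92.3% of the CYP76AD sum and 75.2% to 96.4% of the DODA sum.

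The copies lie in a few groups of neighbours. The order of genes was read from the RefSeq annotation of the assembly EL10.2, in which 17 of the 18 loci were found. The CYP76AD loci LOC104905447, LOC104905444, LOC104905445 and LOC104905443 follow each other with 1, 0 and 2 other genes between them. LOC104904820, LOC104904821 and LOC104904822 are separated by 1 and 0 genes, with LOC104904803 beyond a gap of 16 genes. LOC104895710 and LOC104895627 have 0 genes between them. The DODA loci LOC104890499, LOC104890494, LOC104890492 and LOC104890485 are separated by 2, 1 and 4 genes, and LOC104890694 lies beyond a further 48. The inactive P450 LOC104908380 and the DODA gene LOC104908371 lie 2 genes apart, the only place where both families meet. Reads from near-identical copies can be split between them in ways that the FPKM values do not show, so the levels of single loci in these groups are uncertain, and the level of each locus within a joined entry is not known.

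The betalain entries that met the criteria for a differentially expressed gene (DEG) under salt were CYP76AD copies on day 7. LOC104905444, the second most abundant CYP76AD entry, fell to 0.496 of its control level on the log2(FPKM + 1) scale, and LOC104904803, a copy of low level, rose. No DODA entry met the criteria on either day (0 of 6) in the main fit, with a pseudocount of 1 and all libraries as deposited. With a pseudocount of 0.1, 3 DODA entries of low level met them on 1 day each, as given below. Other alternatives that kept the pseudocount of 1 also brought LOC104908371 or LOC104890485 to the criteria on day 1. The thresholds are those of the study's methods, where they were applied with Ballgown, whereas the test here was limma. P before adjustment had to lie under 0.05 and the fold change beyond 1 in either direction on the log2(FPKM + 1) scale, in a limma fit over all genes. On day 1, 0 of 15 entries met these criteria, against 5.99% of the 27073 genes tested, and on day 7, 2 of 14 met them, against 5.08% of the 27411 genes tested. The limma P alone was under 0.05 for 2 entries on day 1 and 4 on day 7, and a linear model without moderation called 0 and 2. Adjusted p-values are those of Benjamini and Hochberg over all genes tested. The median log2 fold change of the entries was 0.22 on day 1, where that of all genes was 0, and 0.03 on day 7, where that of all genes was 0.02. With 3 libraries against 3, an exact permutation test of a single gene cannot go below 0.1. The root markers of the Casparian strip summed to 14.9 to 44.4 FPKM in CK_7 and 72.7 to 104 in S_7, and their part in the day 7 differences was not tested. In bulk roots, fewer cells of a type and less RNA per cell cannot be told apart in any of these differences.

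**Figure D2:**
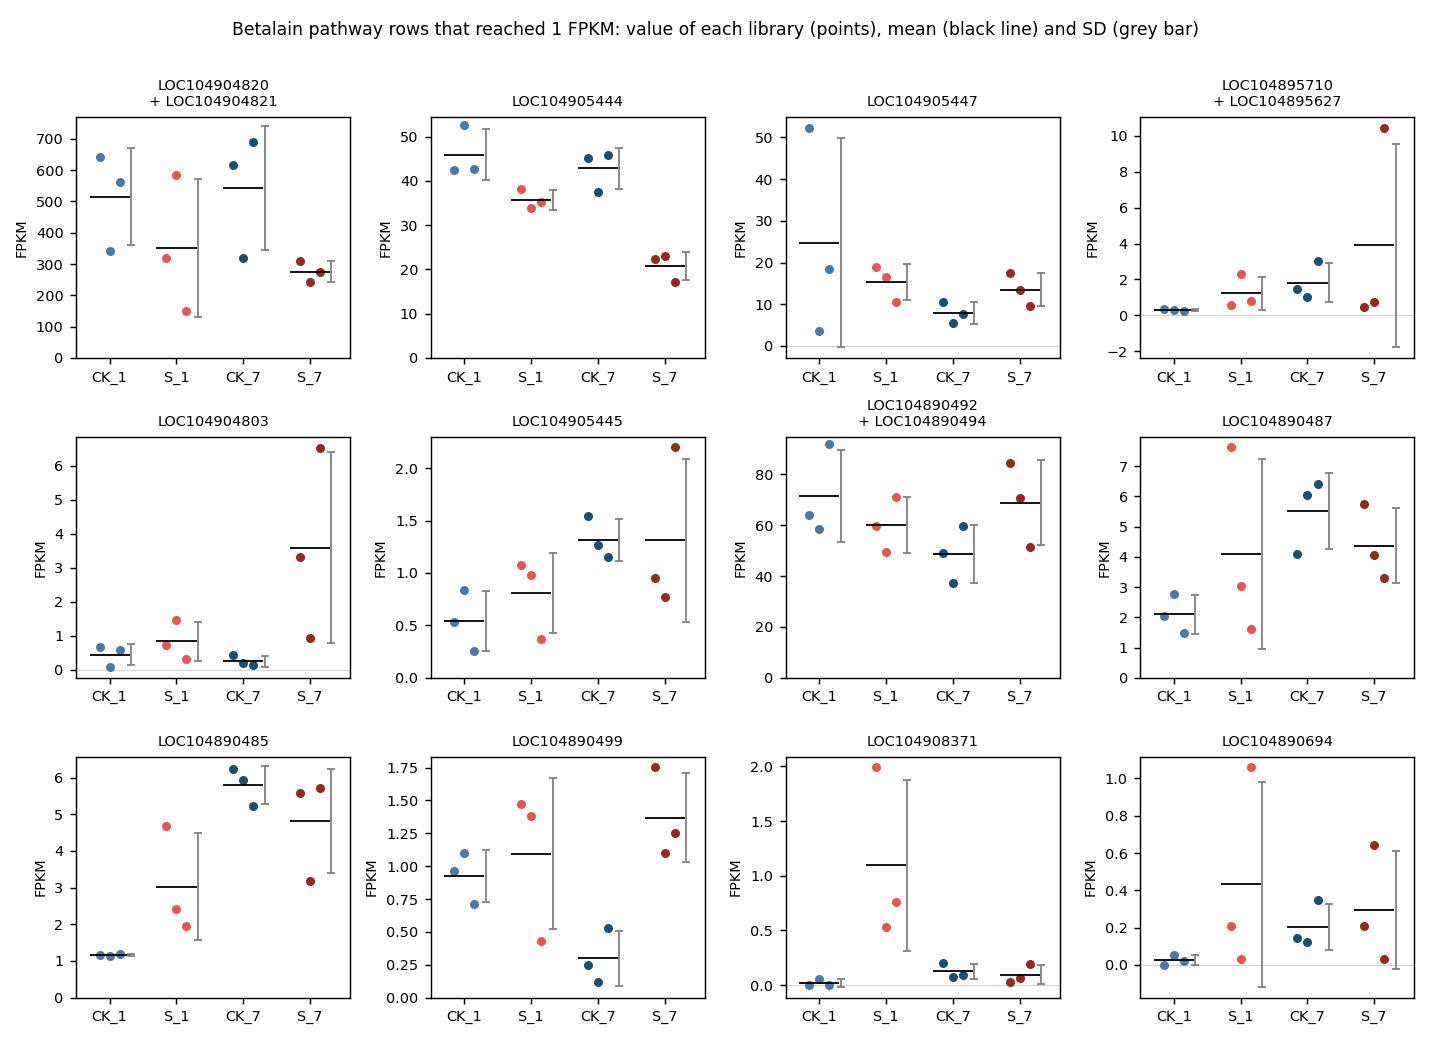
FPKM of the 12 betalain entries that reached 1 FPKM, with 1 panel per entry and its own linear axis; points are libraries by group, the black line is the group mean and the grey bar the SD (n = 3). LOC104905444 sits between 17.1 and 22.9 in S_7 against 37.6 to 45.7 in CK_7, while the groups of the joined DODA entry LOC104890492 and LOC104890494 overlap.

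The most abundant CYP76AD entry was LOC104904820;LOC104904821, described as 76AD1-like. Its mean over the 12 libraries was 421 FPKM, which placed it 94th among all genes, above 99.7% of them. It stood at 641, 342 and 561 FPKM in CK_1 and at 318, 585 and 151 in S_1. The CK_7 libraries stood at 617, 318 and 691 and those of S_7 at 310.1, 242 and 275. The groups overlapped on day 1, whereas on day 7 every salt library lay below every control library, by a narrow margin to the lowest control. Its log2 fold change was -0.71 (SE 0.58) on day 1, with an adjusted p of 0.623 in limma. On day 7 it was -0.90 (SE 0.36, adjusted p = 0.262 in limma), which missed the fold change criterion. The day 7 difference depended on the second CK_7 library, the lowest control. Without it the log2 fold change was -1.25 (adjusted p = 0.154 in limma) and the entry met the criteria. The control libraries of this entry alone spanned 318 to 691 FPKM on day 7, so the mean of 542 ± 197 (SD, n = 3) was the less certain side of the comparison, against 276 ± 34.2 (SD, n = 3) in S_7.

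LOC104905444, described as 76AD1, followed at a mean of 36.3 FPKM. It stood at 42.4, 52.7 and 42.7 FPKM in CK_1 and at 38.1, 33.8 and 35.2 in S_1. On day 7 it stood at 45.2, 37.6 and 45.7 in CK_7 and at 22.4, 22.9 and 17.1 in S_7. The salt libraries lay below the controls on both days, narrowly on day 1 and by a wide gap on day 7. The means were 45.9 ± 5.83 and 35.7 ± 2.20 FPKM on day 1 and 42.8 ± 4.55 and 20.8 ± 3.22 on day 7 (SD, n = 3 each). On day 1 the log2 fold change was -0.35 (SE 0.15, adjusted p = 0.339 in limma) and the criteria were not met. On day 7 it was -1.01 (SE 0.15, adjusted p = 0.0476 in limma), with a 95% interval from -1.39 to -0.64. This was the only betalain entry with an adjusted p under 0.05 in a salt comparison. Its fold change lay at the edge of the criterion. It was -0.97 without the first CK_7 library, -0.96 without the third and -0.88 without the third S_7 library, all 3 short of the criterion. The adjusted p in these limma fits was 0.136, 0.138 and 0.0902, so it also no longer lay under 0.05.

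LOC104905447, a 76AD1-like copy with a mean of 15.4 FPKM, had both its highest and its lowest level in CK_1. It stood at 52.3, 3.46 and 18.5 FPKM in CK_1 and at 19.0, 16.4 and 10.6 in S_1. In CK_7 it stood at 10.7, 5.51 and 7.58, against S_7 levels of 17.6, 13.3 and 9.59. The groups overlapped on both days. Salt gave a log2 fold change of -0.07 (SE 0.89) on day 1 and 0.71 (SE 0.30, adjusted p = 0.288 in limma) on day 7.

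The remaining 3 described CYP76AD entries stood near 1 FPKM. LOC104904803, described as 76AD1, stood at 0.661, 0.0833 and 0.581 FPKM in CK_1 and at 0.712, 1.45 and 0.328 in S_1. Day 7 levels were 0.433, 0.199 and 0.125 in CK_7 and 3.31, 0.920 and 6.53 in S_7. All 3 salt libraries of day 7 were above the controls, but they differed among themselves several-fold. The fold change, on the log2 scale, was 0.32 (SE 0.28) on day 1 and 1.67 (SE 0.51, adjusted p = 0.175 in limma) on day 7, which met the criteria. The call was lost, with P above its threshold, without the second CK_7 library (1.64), the third CK_7 library (1.60) or the first S_7 library (1.61). Across the 12 libraries its level ran opposite to that of LOC104905444 (Pearson's r = -0.877 on the log2(FPKM + 1) scale, a description over libraries that share the same treatments).

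The joined entry LOC104895710;LOC104895627 stood at 0.341, 0.274 and 0.264 FPKM in CK_1 and at 0.595, 2.30 and 0.790 in S_1. The CK_7 libraries stood at 1.44, 0.996 and 3.05 and those of S_7 at 0.493, 0.772 and 10.5. The salt libraries were higher on day 1, while on day 7 the third S_7 library alone stood far above the rest. On the log2 scale the salt effect was 0.71 (SE 0.29, adjusted p = 0.328 in limma) on day 1 and 0.21 (SE 0.85) on day 7. With a pseudocount of 0.1 the day 1 value was 1.54 (adjusted p = 0.285 in limma), which met the criteria. The 76AD1-like copy LOC104905445 stood at 0.533, 0.834 and 0.258 FPKM in CK_1 and at 1.07, 0.981 and 0.371 in S_1. Its levels on day 7 were 1.54, 1.26 and 1.15 in CK_7 and 0.953, 0.773 and 2.20 in S_7. The groups overlapped on both days, with log2 fold changes of 0.22 (SE 0.23) and -0.05 (SE 0.27).

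Among the DODA genes, the ring-cleaving step, LOC104890492;LOC104890494 was by far the most abundant, at a mean of 62.3 FPKM and above 96.1% of all genes. It stood at 64.0, 58.4 and 92.1 FPKM in CK_1 and at 59.6, 49.5 and 71.3 in S_1. On day 7 it stood at 49.0, 37.3 and 59.9 in CK_7 and at 84.6, 70.8 and 51.3 in S_7. The groups overlapped on both days. The log2 fold change was -0.23 (SE 0.24, 95% interval -0.83 to 0.36) on day 1 and 0.49 (SE 0.25, 95% interval -0.14 to 1.12, adjusted p = 0.374 in limma) on day 7. The value joins 7 transcripts, of which 5 were assembled from the reads and are not in the annotation.

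LOC104890485 and LOC104890487, both described as DODA-like, stood at a few FPKM. LOC104890485 stood at 1.17, 1.14 and 1.19 FPKM in CK_1 and at 4.69, 2.43 and 1.96 in S_1. In CK_7 it stood at 6.24, 5.92 and 5.22, against S_7 levels of 5.57, 3.18 and 5.71. Every S_1 library was above every CK_1 library, and the groups of day 7 overlapped. Salt against CK gave a log2 fold change of 0.83 (SE 0.31, adjusted p = 0.288 in limma) on day 1, short of the fold change criterion, and -0.25 (SE 0.23) on day 7. The criteria were met on day 1 with a pseudocount of 0.1 (1.20) and without the third S_1 library (1.03).

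LOC104890487 stood at 2.06, 2.78 and 1.48 FPKM in CK_1 and at 7.64, 3.04 and 1.63 in S_1. Day 7 levels were 4.08, 6.06 and 6.42 in CK_7 and 5.75, 4.06 and 3.32 in S_7. Its groups overlapped on both days, with log2 fold changes of 0.56 (SE 0.49) and -0.28 (SE 0.25). This gene and LOC104890485 were the pair of betalain entries whose levels ran most alike (r = 0.804 over 12 libraries).

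LOC104908371, the only copy described as 4,5-DOPA dioxygenase extradiol 1, stood at or under 0.203 FPKM outside S_1. It was listed at 0, 0.0577 and 0 FPKM in CK_1 and stood at 1.99, 0.532 and 0.760 in S_1. The CK_7 libraries stood at 0.203, 0.0760 and 0.0953 and those of S_7 at 0.0311, 0.0688 and 0.190. All 3 S_1 libraries lay above the other 9 libraries. The log2 fold change on day 1 was 0.98 (SE 0.26, adjusted p = 0.161 in limma), just under the fold change criterion on a scale that understates changes of low levels. With a pseudocount of 0.1 in place of 1 it was 3.16, with median ratio scaling it was 1.01, and without the second S_1 library it was 1.17, and the criteria were then met. On day 7 it was -0.04 (SE 0.07). The neighbouring inactive P450 LOC104908380 had its highest library, 0.678 FPKM, in S_1 as well, the same library in which LOC104908371 was highest.

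LOC104890499 stood at 0.963, 1.10 and 0.711 FPKM in CK_1 and at 1.47, 1.38 and 0.432 in S_1. On day 7 it stood at 0.247, 0.119 and 0.526 in CK_7 and at 1.75, 1.10 and 1.25 in S_7. The day 7 groups were well apart and those of day 1 overlapped. The log2 fold change on day 7 was 0.87 (SE 0.18, adjusted p = 0.0857 in limma), short of the fold change criterion, and on day 1 it was 0.09 (SE 0.27). With a pseudocount of 0.1 the day 7 value was 1.99 (adjusted p = 0.124 in limma), which met the criteria. The DODA-like copy LOC104890694 stood at 0, 0.0529 and 0.0181 FPKM in CK_1 and at 0.209, 0.0307 and 1.06 in S_1. Its levels on day 7 were 0.142, 0.123 and 0.348 in CK_7 and 0.211, 0.645 and 0.0293 in S_7. The groups overlapped on both days, with log2 fold changes of 0.42 (SE 0.25) and 0.08 (SE 0.19).

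**Figure D3:**
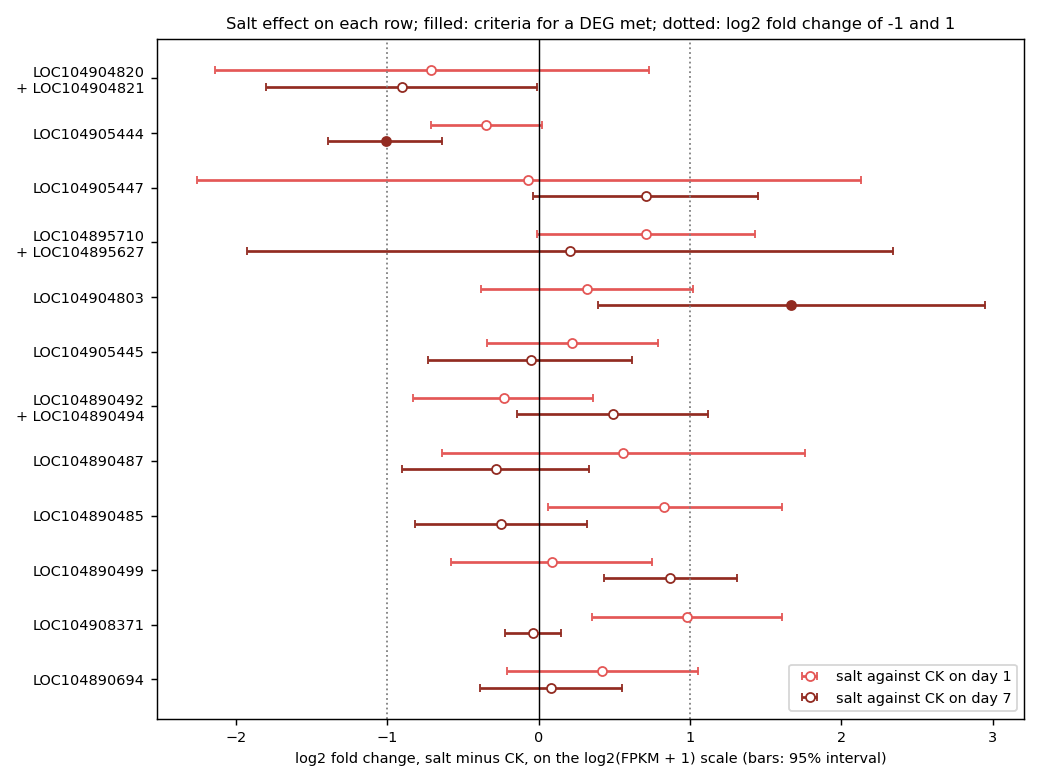
Log2 fold change of salt against CK on day 1 (light) and day 7 (dark) for the 12 described entries, on the log2(FPKM + 1) scale with 95% limma intervals; filled points met the criteria for a DEG and dotted lines mark -1 and 1. The filled points are those of LOC104905444 (-1.01) and LOC104904803 (1.67), both on day 7.

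By the order of the libraries alone, the 2 groups of a day did not overlap for 5 of 15 entries on day 1, against 21.8% of all genes, and for 4 of 14 on day 7, against 26.4%. On day 1, 4 of the 5 lay above the controls, namely LOC104908380, LOC104908371, LOC104890485 and LOC104895710;LOC104895627, and LOC104905444 lay below. On day 7 LOC104904803 and LOC104890499 lay above, and LOC104904820;LOC104904821 and LOC104905444 lay below.

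Whether salt acted differently on the 2 days was tested directly, as an interaction over all 12 libraries. At an adjusted p under 0.05, 0 of 15 entries passed, against 1.76% of the 28320 genes. At an unadjusted P under 0.05 there were 4, namely LOC104908371, LOC104905444, LOC104890485 and LOC104890499. For LOC104908371 the day 7 effect minus the day 1 effect was -1.01 on the log2 scale (SE 0.28, adjusted p = 0.123 in limma). For LOC104905444 it was -0.66 (SE 0.20, adjusted p = 0.155 in limma). It was -1.09 for LOC104890485 (SE 0.38, adjusted p = 0.216 in limma) and 0.79 for LOC104890499 (SE 0.32, adjusted p = 0.293 in limma). The day 7 decrease of LOC104905444 is therefore not shown to differ from its day 1 value after correction.

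Between day 1 and day 7 of the control roots, 2 of the 6 DODA entries and 1 of the CYP76AD entries rose. In CK_7 against CK_1, 3 of 14 entries met the criteria, all 3 higher on day 7, against 10.2% of the 27402 genes tested. The groups did not overlap for 7 of 14, against 32.6% of all genes, and 6 of the 7 lay higher on day 7 and 1 lower. LOC104890485 rose from 1.17 ± 0.0232 to 5.80 ± 0.522 FPKM (SD, n = 3 each), a log2 fold change of 1.65 (SE 0.19, adjusted p = 0.014 in limma). LOC104890487 rose from 2.10 ± 0.651 to 5.52 ± 1.26 FPKM, a log2 fold change of 1.07 (SE 0.27, adjusted p = 0.0706 in limma). The CYP76AD entry LOC104895710;LOC104895627 rose by 1.06 (SE 0.28, adjusted p = 0.0809 in limma). The most abundant entries of the families did not meet the criteria. LOC104904820;LOC104904821 had a log2 fold change of 0.05 (SE 0.46) and LOC104890492;LOC104890494 one of -0.54 (SE 0.25). LOC104890499 was lower in every CK_7 library, at -0.58 (SE 0.16, adjusted p = 0.0873 in limma), and with a pseudocount of 0.1 it stood at -1.48 and met the criteria. With that pseudocount LOC104905445 (1.24) and LOC104890694 (1.25) met them as well, both higher on day 7.

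The libraries of day 7 also differed from those of day 1 in scale. Scaling each library by its median ratio shifted the log2 fold changes of genes with a mean of at least 1 FPKM by a median of -0.173 in CK_7 against CK_1 and -0.236 in S_7 against S_1, and by -0.001 and -0.066 in the salt comparisons of day 1 and day 7. After that scaling LOC104890485 still met the criteria (1.49, adjusted p = 0.0133 in limma), while LOC104890487 (0.92) and LOC104895710;LOC104895627 (0.97) fell short of the fold change criterion. LOC104890487 also fell short without the third CK_1 library (0.92) or the third CK_7 library (0.97), and LOC104895710;LOC104895627 without the third CK_7 library (0.77). The latter entry had a P above the threshold when all 12 libraries shared 1 fit (adjusted p = 0.347 in limma). LOC104905447, at -0.94 with all libraries, stood at -1.89 and met the criteria without the second CK_1 library. The green tissue markers also stood lower on day 7, at 10.1 to 22.7 summed FPKM in CK_7 against 54.6 to 145 in CK_1, and their part in the differences over time was not tested.

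**Figure D4:**
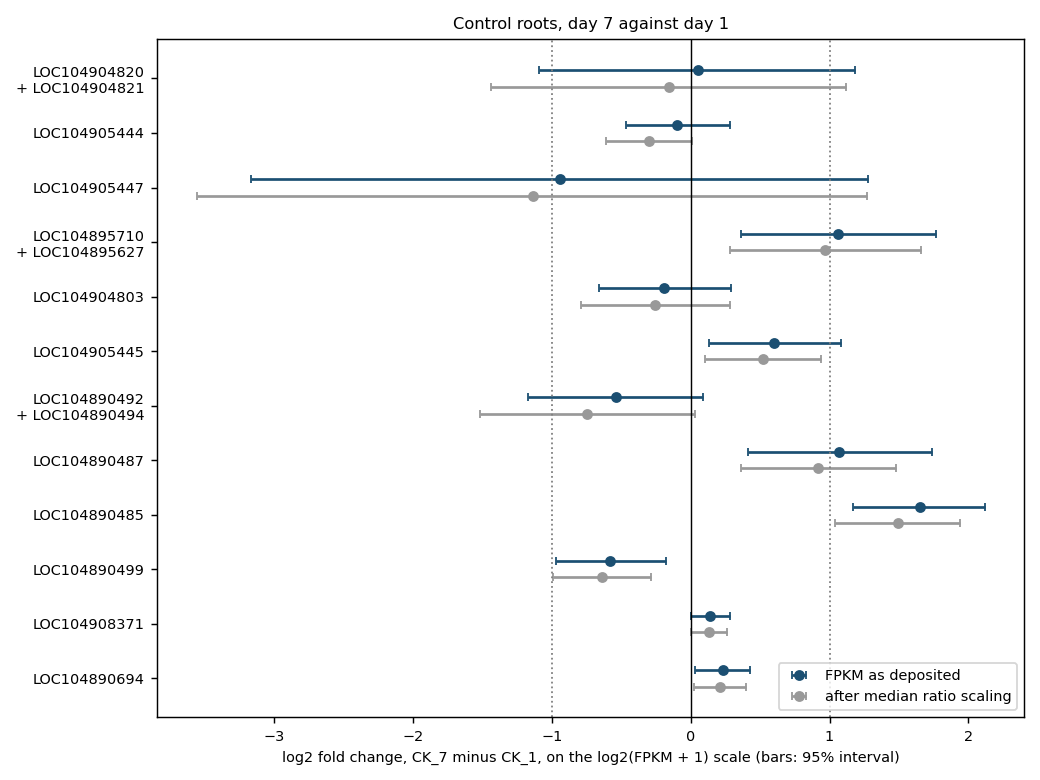
Log2 fold change of CK_7 against CK_1 for the 12 described entries on the log2(FPKM + 1) scale with 95% limma intervals, from FPKM as deposited (dark) and after scaling each library by its median ratio (grey); dotted lines mark -1 and 1. LOC104890485 stays beyond 1 in both (1.65 and 1.49), while LOC104890487 moves from 1.07 to 0.92.

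In the salt-treated roots, S_7 against S_1, 0 of 15 entries met the criteria, against 6.78% of the 27398 genes tested. The limma P alone was under 0.05 for 2, and a linear model without moderation called 0. The groups did not overlap for 2 of 15, against 30.6% of all genes, and both were lower on day 7. LOC104905444 had a log2 fold change of -0.76 (SE 0.14, adjusted p = 0.0598 in limma). With median ratio scaling it was -1.03 (adjusted p = 0.0324 in limma), which met the criteria. In control roots over the same days this gene stood at -0.10 (SE 0.15) as deposited and -0.30 (SE 0.12) after scaling. LOC104908371 had a log2 fold change of -0.87 (SE 0.26, adjusted p = 0.13 in limma), short of the fold change criterion, and it met the criteria with a pseudocount of 0.1 (-2.49) and without the second S_1 library (-1.07). LOC104904803 was higher in S_7 on average, at 1.16 (SE 0.55), with overlapping groups, and it met the criteria without the second S_7 library (1.69) or when all 12 libraries shared 1 fit. Both comparisons over time use libraries that also enter the salt comparisons, so their values are not independent of those above.

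The genes whose levels ran most like those of the abundant entries were looked up among 17145 genes with a mean of at least 1 FPKM, by Pearson's r of log2(FPKM + 1) over the 12 libraries. For LOC104904820;LOC104904821 they were LOC104895595, an L-ascorbate oxidase homolog (r = 0.939), LOC104892362, phospholipase D beta 1 (r = 0.898), and LOC104903439, fasciclin-like arabinogalactan protein 13 (r = 0.891). For LOC104890492;LOC104890494 the closest gene was LOC104892427, the SNARE-interacting protein KEULE (r = 0.890), followed by the noncoding LOC104885484 (r = 0.878) and by LOC104884538, aspartic proteinase A1 (r = 0.864). For LOC104905444 they were LOC104895222, GDPD1-like (r = 0.919), and LOC104889631, syntaxin-52 (r = 0.915), followed by an entry with no gene name (r = 0.905). None of these is a betalain entry. Between the most abundant CYP76AD and the most abundant DODA entry r was -0.113, and between LOC104904820;LOC104904821 and LOC104905444 it was 0.496. All of these describe 12 libraries that share treatments and days.

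Upstream of the pigment genes, the shikimate and arogenate genes that met the criteria under salt moved in both directions. Tyrosine is made in plastids from the shikimate pathway by way of chorismate, prephenate and arogenate. A list of 23 genes was chosen by words in the description that name these steps. It also took in genes of branches that lead elsewhere, among them arogenate dehydratases, aminodeoxychorismate synthases and an isochorismate synthase, and inactive shikimate kinase-like genes. The list held 3 that rose and 3 that fell on day 1 and 1 that rose and 2 that fell on day 7, against the shares of all genes given above (5.99% and 5.08%). The median log2 fold change of the list was 0.13 on day 1 and 0.04 on day 7, where that of all genes was 0 and 0.02. Some genes short of the fold change criterion lay above the controls in every salt library on both days. Among them were 3-dehydroquinate synthase (LOC104895158, 0.66 on day 1 and 0.77 on day 7) and 3-phosphoshikimate 1-carboxyvinyltransferase 2 (LOC104905388, 0.58 and 0.96). Chorismate synthase 1 was another (LOC104887115, 0.77 and 0.45). None had an adjusted p under 0.05 in limma. The inactive shikimate kinase-like LOC104906282 lay below on day 7 (-0.45).

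On day 1 salt lowered 2 genes of arogenate dehydrogenase 2, the enzyme that turns arogenate into tyrosine. LOC104901924 stood at 211, 112 and 182 FPKM in CK_1 and at 7.73, 12.6 and 4.73 in S_1. In CK_7 it stood at 125, 101 and 104, against S_7 levels of 257, 13.4 and 208. The day 1 groups were far apart, while 1 of the 3 S_7 libraries stayed at the S_1 level and the others lay above the controls. Its log2 fold change was -4.22 (SE 0.39, adjusted p = 0.0255 in limma) on day 1 and -0.27 (SE 1.14) on day 7, and the interaction did not pass (adjusted p = 0.188 in limma). LOC104901927 stood at 10.4, 14.6 and 18.4 FPKM in CK_1 and was listed at 0, 0.00549 and 0 in S_1. Day 7 levels were 13.7, 14.2 and 14.7 in CK_7 and 19.4, 19.4 and 15.1 in S_7. Its day 1 decrease passed with an adjusted p of 0.0147 in limma, and the interaction with day passed as well (adjusted p = 0.000206 in limma). As levels listed at 0 can be failed estimates, no fold is given for it, and reads may be split between the arogenate dehydrogenase copies.

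On each day 1 copy of the entry enzyme of the shikimate pathway met the criteria, higher under salt. LOC104904053, the aldolase of the first step (copy 2 of phospho-2-dehydro-3-deoxyheptonate aldolase), stood at 20.9, 24.7 and 18.3 FPKM in CK_1 and at 40.5, 81.4 and 52.1 in S_1, a day 1 log2 fold change of 1.36 (SE 0.28, adjusted p = 0.107 in limma). Every S_7 library of this copy also lay above every CK_7 library, at 0.62 (SE 0.12, adjusted p = 0.0812 in limma), short of the fold change criterion. LOC104891963, copy 1 of the same enzyme, stood at 298, 225 and 299 FPKM in CK_7 and at 504, 685 and 668 in S_7, a log2 fold change of 1.17 (SE 0.26, adjusted p = 0.0978 in limma). Its day 1 groups overlapped, with a log2 fold change of 0.67 (SE 0.68). The aminotransferase that makes arogenate from prephenate, LOC104908254, rose on day 1 by 1.52 (SE 0.34, adjusted p = 0.123 in limma). On day 7 its salt libraries again lay above the controls, at 0.60 (SE 0.11, adjusted p = 0.072 in limma), short of the fold change criterion. The branch toward phenylalanine, which competes for arogenate, moved in both directions. LOC104900981 (arogenate dehydratase/prephenate dehydratase 1) rose by 1.18 (SE 0.26) on day 1, and LOC104903657 (copy 6) had a log2 fold change of -1.14 (SE 0.30) on day 7, which stood at -0.87 without the third S_7 library. LOC104891029, a dehydroquinate dehydratase/shikimate dehydrogenase copy of low level, stood at 10.4, 7.62 and 7.64 FPKM in CK_7 and at 2.61, 2.44 and 2.43 in S_7, a log2 fold change of -1.44 (SE 0.17, adjusted p = 0.0283 in limma). Its day 1 levels were 0.324, 0.449 and 0.182 in CK_1 and 1.79, 0.485 and 0.77 in S_1. From day 1 to day 7 it rose by 2.85 in the controls (SE 0.23, adjusted p = 0.00643 in limma). In the salt-treated roots the rise was smaller, at 0.85 (SE 0.28, adjusted p = 0.154 in limma). The more abundant copy of the same description, LOC104891028, stood at 18.9, 18.8 and 26.5 FPKM in CK_7 and at 21.4, 17.9 and 18.7 in S_7. Its day 7 log2 fold change was -0.12 (SE 0.16, adjusted p = 0.718 in limma), and reads may be split between the copies. Chorismate mutase 2, LOC104884551, had a log2 fold change of -1.01 (SE 0.35, adjusted p = 0.253 in limma) on day 1. It missed the criteria after scaling, and without replicate 1 or 3 of CK_1 or any 1 library of S_1. Chorismate mutase 3, LOC104887297, described as chloroplastic, stood higher in every S_1 library than in every CK_1 library. Its day 1 log2 fold change of 0.95 (SE 0.21, adjusted p = 0.114 in limma) fell short of the fold change criterion.

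**Figure D5:**
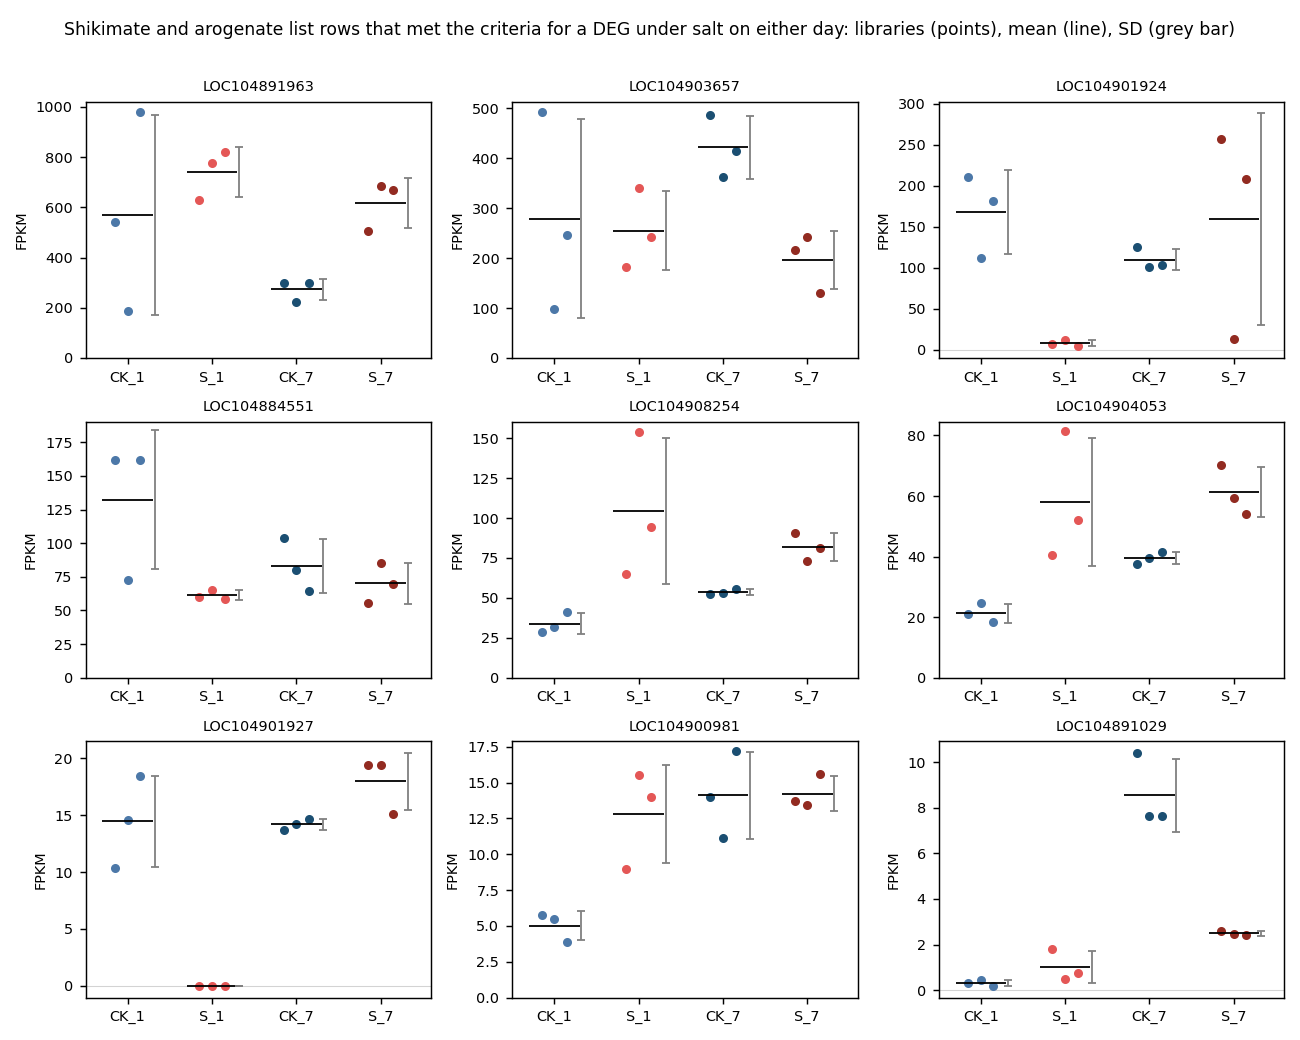
FPKM of the 9 genes of the shikimate and arogenate list, 2 of which belong to the phenylalanine branch (LOC104900981 and LOC104903657), that met the criteria for a DEG under salt on day 1 or day 7, with 1 panel per gene and its own linear axis; points are libraries by group, the line is the mean and the grey bar the SD (n = 3). LOC104901924 lies between 4.73 and 12.6 in S_1 against 112 to 211 in CK_1, and in S_7 1 library is at 13.4 while the others are at 208 and 257.

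Of 13 genes that use tyrosine or DOPA in other ways, 1 met the criteria on each day and both rose, a share near the 5.99% and 5.08% of all genes. The median log2 fold change of these genes was 0.01 on day 1 and 0.21 on day 7. LOC104900602, an aromatic-L-amino-acid decarboxylase, an enzyme type that makes amines such as tyramine and dopamine from these amino acids, stood at 0.211, 0 and 0.232 FPKM in CK_1 and at 2.58, 4.67 and 0.900 in S_1. Its log2 fold change was 1.56 (SE 0.42, adjusted p = 0.164 in limma). The entry that joins 7 polyphenol oxidase loci, LOC109135718 and its neighbours, stood at 35.0, 29.0 and 29.9 FPKM in CK_7 and at 137, 73.9 and 86.5 in S_7. Its log2 fold change was 1.59 (SE 0.25, adjusted p = 0.0515 in limma). The polyphenol oxidase-like entry with the next locus number, LOC104900762, did not meet the criteria. It was listed at 0 in at least 1 library of every group and reached 319 FPKM in S_1. Levels listed at 0 can be failed estimates, and reads may be split between these entries. Polyphenol oxidases oxidise phenols such as DOPA.

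Flavonoid genes were listed for comparison, since flavonoids come from phenylalanine and share the shikimate supply. Of 38 entries, 37 were tested on each day, and 3 rose and 1 fell on day 1, while 8 rose and 2 fell on day 7, against 5.99% and 5.08% of all genes called in either direction. Their median log2 fold changes for day 1 and day 7 were 0.06 and 0.23. On day 1 the chalcone isomerase gene LOC104886934 stood at 16.0, 10.5 and 13.9 FPKM in CK_1 and at 34.7, 106 and 105 in S_1, a log2 fold change of 2.37 (SE 0.47, adjusted p = 0.0982 in limma). LOC104898032, an anthocyanidin glucoside xylosyltransferase by description, stood at 0.391, 0 and 0.678 FPKM in CK_1 and at 6, 4.04 and 3.2 in S_1. Its log2 fold change was 2.00 (SE 0.32, adjusted p = 0.0687 in limma). In S_7 it was listed at 0, 6.27 and 0 FPKM, and levels listed at 0 can be failed estimates. A second chalcone isomerase gene, LOC104886918, rose by 1.57 (SE 0.23, adjusted p = 0.0582 in limma) on day 1 and had a log2 fold change of -1.51 (SE 0.52, adjusted p = 0.213 in limma) on day 7. The day 7 call was lost without the third CK_7 library (-0.97), without replicate 1 (-1.58) or replicate 3 (-1.29) of S_7 and in the linear model without moderation.

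The flavonoid entry that fell on day 1 joins a pair of chalcone synthase loci, the first enzyme of the flavonoid branch. This entry, LOC104887630;LOC104887632, stood at 172, 56.5 and 131 FPKM in CK_1 and at 31.3, 47.6 and 38.7 in S_1, a log2 fold change of -1.47 (SE 0.44, adjusted p = 0.201 in limma), and its call was lost without the third CK_1 library (-1.33) or the first S_1 library (-1.32). Another chalcone synthase entry rose on day 7. That entry of 3 loci, LOC109136247;LOC104905366;LOC104905367, stood at 0.256, 3.09 and 1.78 FPKM in CK_7 and at 6.21, 42.1 and 38.4 in S_7, a log2 fold change of 3.25 (SE 0.84, adjusted p = 0.13 in limma). Entries with adjacent locus numbers, both described as anthocyanidin glucosyltransferase moved in opposite directions on day 7. LOC104896006 was listed at 0, 7.68 and 0 FPKM in CK_7 and stood at 18.2, 14.8 and 22.6 in S_7 (adjusted p = 0.151 in limma). LOC104896007 stood at 3.27, 3.85 and 4.41 FPKM in CK_7 and was listed at 0 in all 3 S_7 libraries (adjusted p = 0.00946 in limma). No fold is given for these glucosyltransferase entries because of the levels listed at 0, and reads may be split between them. The difference between the betalain and flavonoid counts was not tested. The 2 other P450 genes of family 76 did not meet the criteria in any comparison (0 of 2). The single gene described as a MYB114-like factor, LOC104884133, reached 0.0326 FPKM at most. MYB factors of this type are known to switch on the pigment genes in coloured beets.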

How the data were processed

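RNA-seq of sugar beet roots was performed by the study's authors on 12 libraries, 3 for each of 4 groups, with groups and replicate numbers taken from the labels. Reads were aligned with HISAT and transcripts quantified with StringTie by the authors, who deposited 1 FPKM value per gene and library. Their processing notes name HISAT2 2.0, StringTie 1.3.0 and Bowtie 0.12.2, and list a mouse build. The sugar beet build is not given in the sources used here, so no coordinates are printed. The annotation columns of the table gave the gene descriptions.

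Salt was compared with CK on each day, and day 7 with day 1 in CK and in salt, in 1 limma fit per comparison (limma 3.58.1, R 4.3.3) of log2(FPKM + 1) values, with a trend of variance on level. The fit took the 6 libraries of a comparison and the genes above 0 in any of them, and tests were two-sided. A DEG had P under 0.05 before adjustment and a log2 fold change beyond 1 in either direction. Benjamini-Hochberg adjusted p-values over all genes stand beside it. The interaction was fitted over all 12 libraries. The fits were tested on simulated data. Fold changes on this scale understate the change of low genes.

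The betalain entries and the other lists were chosen by description, with earlier results of these data known. Every entry that reached 1 FPKM in a library is described singly. From each other list, at most 3 genes that met the criteria are named per salt comparison, by the size of the change. Outside this rule, the other called genes of the shikimate and arogenate list and the flavonoid genes LOC104887630;LOC104887632 on day 1 and LOC104886918 on day 7 were named after their values were seen. The same holds for LOC104891028, LOC104887297, LOC104900762 and LOC104896005, which were named as further copies of genes described here. It also holds for LOC104895158, LOC104905388, LOC104887115 and LOC104906282, uncalled genes of the shikimate and arogenate list. The alternatives were an adjusted p, a pseudocount of 0.1, a mean of at least 1 FPKM, median ratio scaling, a linear model without moderation, the ratio of mean FPKM, all libraries in 1 fit, a replicate block and each library left out. Where a library left a group with 2, the spread of the fit was assumed for it. Sequences of the genes were not analysed here.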

Additional observations from a re-analysis of the deposited data

Results flagged for a closer look

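Among the lists of 23, 13, 38, 2 and 1 genes outside the betalain families, salt acted differently on the 2 days for 3 genes. Each had an adjusted p under 0.05 for the limma interaction over all 12 libraries, as had 1.76% of all 28320 genes. For LOC104901927, an arogenate dehydrogenase, the effect on day 7 minus that on day 1 was 4.23 on the log2 scale (adjusted p = 0.000206). This value is neither a fold nor a bound, since its S_1 libraries were listed at 0, 0.00549 and 0 FPKM, which can be failed estimates, and its size depends on the pseudocount. For LOC104886918, a chalcone isomerase, it was -3.08 (adjusted p = 0.0377). The adjusted p was 0.0944 with the replicate block and 0.0587 to 0.0822 in the fits that left out 1 library of CK_1, S_1 or S_7. For LOC104891029, a dehydroquinate dehydratase/shikimate dehydrogenase copy of low level, it was -2.00 (adjusted p = 0.0254). The adjusted p for this copy was 0.0583 without the first CK_1 library and 0.0515 to 0.0579 without replicate 1 or 3 of CK_7 or any 1 library of S_7.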

How the results depend on the processing

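With no alternative did a called betalain entry change direction. On day 1 the count of entries that met the criteria, 0, became 3 with a pseudocount of 0.1, 1 with median ratio scaling and 1 with the ratio of mean FPKM, and lay between 0 and 2 when 1 library was left out. On day 7 the count of 2 became 1 with an adjusted p and 3 with a pseudocount of 0.1, and lay between 0 and 2 when 1 library was left out. In CK_7 against CK_1 the count of 3 became 1 with an adjusted p, 6 with a pseudocount of 0.1 and 1 with scaling, and lay between 1 and 4 when 1 library was left out. In S_7 against S_1 the count of 0 became 1 with a pseudocount of 0.1, 1 with scaling and 1 with all 12 libraries in 1 fit, and lay between 0 and 1 when 1 library was left out. The interaction count of 0 became 1 with a pseudocount of 0.1 and lay between 0 and 1 when 1 library was left out. The tallies of single values leave out the alternative of an adjusted p in place of P. Of 609 values of single betalain entries under the other alternatives, 577 kept their direction and side of the criteria or moved by less than the spread between replicates, 20 came to meet the criteria and 12 no longer met them. Of 375 such values of the listed genes outside the betalain entries that were called in a salt comparison or the interaction, 329 kept theirs and 46 no longer met the criteria.

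Over all genes, the adjusted p lowered the counts of DEGs from 1621 to 187 on day 1, from 1392 to 355 on day 7, from 2808 to 1544 in CK_7 against CK_1 and from 1857 to 552 in S_7 against S_1. A pseudocount of 0.1 raised them to 3041, 2704, 4918 and 3703. With the mean FPKM filter, between 7 and 10 betalain entries remained to be tested in each comparison.

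The replicate numbers come from the labels, and same-numbered libraries did not deviate together (correlations of deviations from the group means between -0.094 and 0.102 over 12 pairs). With the replicate number as a block, the counts of betalain entries were 0 on day 1, 2 on day 7, 3 in CK_7 against CK_1, 0 in S_7 against S_1 and 0 for the interaction, and 230 in place of 499 genes had an interaction.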
